A study of Mus musculus with 8 samples.

Results

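Mitochondrial solute carriers are the membrane proteins that move metabolites, nucleotides, cofactors and ions between the cytosol and the mitochondrial matrix. Their genes were taken from a table of raw counts by symbol: SLC25 family genes, the family relatives Mtch1, Mtch2 and Ucp1 to Ucp3, the pyruvate carrier subunits Mpc1 and Mpc2, and the sideroflexins Sfxn1 to Sfxn5. The rule gave 52 of the 15288 genes of the table, and 51 of them were expressed highly enough to be tested, among 14024 genes in all. The libraries came from IMCD, a mouse cell line labelled as kidney duct cells and, in the series' design text, as inner medullary collecting duct. All cells were kept for 12 h in DMEM without serum. Control cells (libraries 1 to 4) received no added NaCl and the treated cells (libraries 5 to 8) received 100 mmol NaCl, an amount the labels give without a volume. The design text names hypertonic stress as the question. The labels do not say whether the 4 libraries of a group came from separate cultures, so p-values measure the spread between these libraries, which may be technical. In bulk RNA, fewer cells of a type and less RNA per cell cannot be told apart.

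The inner mitochondrial membrane lets few solutes through unaided. SLC25 carriers are its main transport family: they bind a substrate on one face and release it on the other, often in exchange for a counter-substrate. They link glycolysis, the tricarboxylic acid cycle, fatty acid oxidation, amino acid metabolism and ATP synthesis. The pyruvate carrier and the sideroflexins belong to other protein families, and Mtch1, Mtch2 and Slc25a46 are SLC25 relatives of the outer membrane. Renal tubule cells use mitochondrial ATP for ion transport.

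Library totals ranged over 41768063 to 47565623 counts in control and 35286796 to 42394487 counts in NaCl libraries. Control replicate 1, the deepest, and NaCl replicate 5, the shallowest, stood apart from the other libraries of their groups, and results without either are given where a call was lost. Of 16 collecting duct markers, 15 had a row in the table and 12 were tested. The keratin genes Krt7, Krt8 and Krt18 were at a mean of 338, 109 and 217 CPM (counts scaled by TMM-adjusted library size) in control libraries, and Hoxb7 at 71.4 CPM. Aqp2, Aqp3, Aqp4, Scnn1b, Cdh1 and Avpr2 reached no more than 15, 28, 21, 14, 30 and 48 counts in a library. These 6 of the 15, among them the principal cell genes Aqp2 and Avpr2, were thus at or near 0. The 12 tested markers together were at 816 to 1017 CPM in control and 786 to 912 CPM in NaCl libraries. Of the 12 tested markers 2 were called higher and 4 lower with NaCl, where 34.1% of all tested genes were called in edgeR's test described below. When a straight-line drift across the library numbers was included, 7 were lower, among them Krt7, Krt8 and Krt18, and the 2 higher calls, of Avpr2 and Cdh1, were lost. Among markers of other cell types, 9 of 18 had a row and 8 were tested. Their summed level was 2565 to 2864 CPM in control and 2189 to 2550 CPM in NaCl libraries, most of it Col1a1, a collagen gene, at 2492 ± 159.6 and 2148 ± 153 CPM (SD, n = 4 each). Of the 8, Pdgfrb, a pericyte and fibroblast gene, was called higher (37.5 ± 3.86 to 61.1 CPM) as was Ptprc, a leukocyte gene (4.05 ± 0.346 to 13.5 CPM), and 1 was called lower. The part of these markers in the results was not tested.

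Of the 51 tested members, 17 (33.3%) passed an adjusted p-value of 0.05 by edgeR's quasi-likelihood test, with Benjamini-Hochberg adjustment over all tested genes, and such genes are termed called. The log2 change is the log2 of the fold of NaCl over control. Of all tested genes 34.1% were called. At an adjusted p-value under 0.01 there were 10 members (19.6%), against 22.4% of all tested genes, with 6 higher (background 11%) and 4 lower (background 11.4%). DESeq2 called 18 members (35.3%), 8 higher (15.7%) and 10 lower (19.6%), against 35.8%, 17.3% and 18.4% of the same 14024 genes. Among the members 7 were higher with NaCl (13.7%, against 16.9% of all tested genes) and 10 were lower (19.6%, against 17.2%). These shares lie near the background, and the difference was not tested. The median log2 change of the members was -0.04, and that of all tested genes 0.0029. The median absolute log2 change was 0.14 both for the members and for all tested genes. Changes were mostly small: only Slc25a48 and Slc25a10 were called with a change of at least 1.5-fold (3.92% of the tested members, against 7.02% of all tested genes). In 17 members (33.3%) all libraries of one group exceeded those of the other, against 33.4% of all tested genes. Of these 17, 15 were called members, and the other 2 were Slc25a16 and Slc25a35. The groups overlapped for the called members Slc25a30 and Slc25a44. Members together took 0.365 ± 0.0044% of the control counts and 0.359 ± 0.0021% of the NaCl counts (SD, n = 4 each).

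**Figure D1:**
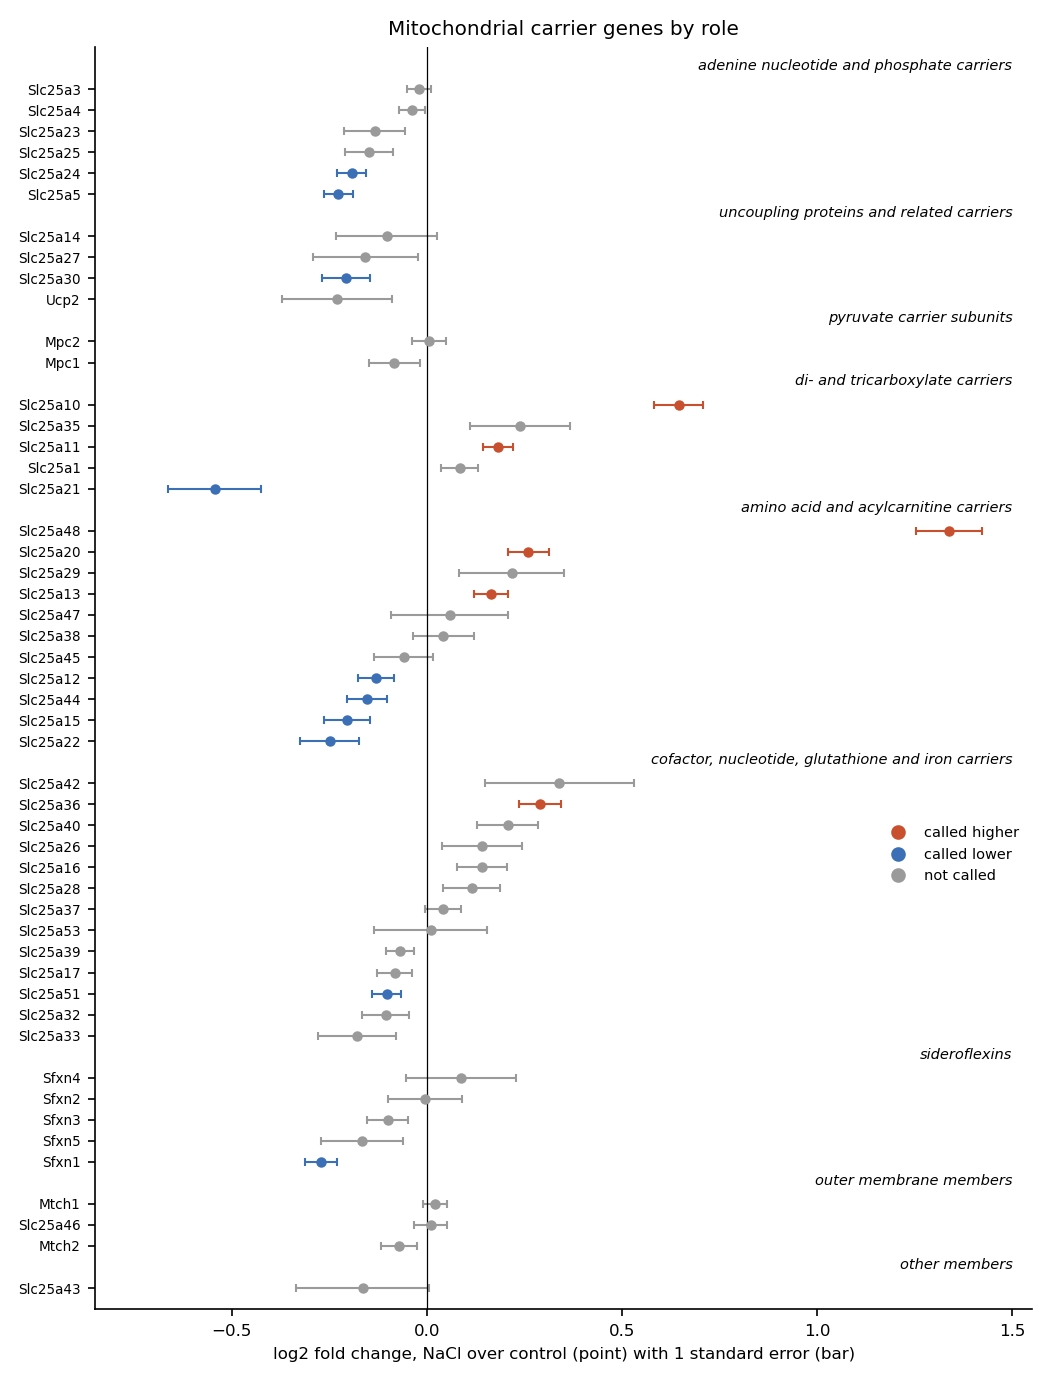
Log2 change (NaCl over control) of 50 tested members on the horizontal axis, ordered within each role, with bars of 1 standard error; red marks 6 called higher, blue the 10 called lower, grey the rest. Slc25a48 and Slc25a10 lie furthest to the right at 1.34 and 0.64, and Slc25a21 furthest to the left at -0.54.

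Slc25a48, whose product carries choline into mitochondria, changed more than any other tested member. It lies on mouse chromosome 13 (chr13:56438355-56474239, GRCm38, plus strand; ENSMUSG00000021509). Its level was 9.60, 9.08, 9.52 and 11.5 CPM in control replicates 1 to 4 and 27.4, 24.4, 23.1 and 25.5 CPM in NaCl replicates 5 to 8. Every NaCl library was above every control library. The mean rose 2.53-fold, from 9.93 ± 1.08 to 25.1 ± 1.84 CPM (± SD, 4 libraries each), with a log2 change of 1.34 (SE 0.084; edgeR adjusted p = 3.36e-09). Per kb of exon it moved from 2.94 ± 0.321 to 7.44 ± 0.544 CPM.

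The dicarboxylate carrier gene Slc25a10, whose product exchanges malate and succinate for phosphate, had the next largest change. It lies at chr11:120491840-120499187 (GRCm38, plus strand; ENSMUSG00000025792). Its level was 36.9, 36.5, 33.01 and 29.7 CPM in control replicates 1 to 4 and 54.0, 54.6, 53.4 and 50.8 CPM in NaCl replicates 5 to 8. The groups were well apart, with 36.9 CPM the highest control value and 50.8 CPM the lowest NaCl value. The mean rose 1.56-fold, a log2 change of 0.64 (SE 0.062; edgeR adjusted p = 6.44e-07). Exons of Gm11788 on the opposite strand cover 6.60% of its exon bases. Whether counting used the strand is not given in the sources used here, so reads of such opposite genes cannot be told apart.

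The sequences just before the RefSeq starts of 3 genes that rose are shown: Slc25a48 and Slc25a10 for their changes, and Slc25a20 because its window holds a motif match. They come from RefSeq's GRCm38.p6 promoter table, plus strand, and stop where GENCODE's gene begins. They are chr13:56438105-56438354 for Slc25a48, chr11:120491587-120491836 for Slc25a10 and chr9:108661886-108662087 for Slc25a20. Capitals mark a match to a searched motif. The Slc25a10 window also holds 186 exon bases of other annotated genes.
Slc25a48: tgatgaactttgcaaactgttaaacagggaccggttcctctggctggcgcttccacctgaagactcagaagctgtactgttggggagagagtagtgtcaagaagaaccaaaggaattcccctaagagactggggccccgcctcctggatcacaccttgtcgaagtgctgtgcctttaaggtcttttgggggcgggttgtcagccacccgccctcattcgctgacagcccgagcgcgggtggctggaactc
Slc25a10: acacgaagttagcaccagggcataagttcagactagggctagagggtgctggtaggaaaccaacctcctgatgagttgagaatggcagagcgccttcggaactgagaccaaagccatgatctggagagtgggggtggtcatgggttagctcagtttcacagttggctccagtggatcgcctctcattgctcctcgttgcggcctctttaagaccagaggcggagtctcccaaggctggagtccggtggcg
Slc25a20: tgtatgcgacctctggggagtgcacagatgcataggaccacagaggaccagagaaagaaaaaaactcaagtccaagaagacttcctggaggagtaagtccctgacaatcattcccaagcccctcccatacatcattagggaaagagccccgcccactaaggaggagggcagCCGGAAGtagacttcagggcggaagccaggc

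Of the 52 members, 43 matched the promoter table by symbol, and the 250 bases before each start were searched on both strands for 3 motifs. The ETS motif CCGGAAG, of the kind bound by GABPA, was in 7 of the 43 members (16.3%), against 15.4% of tested genes and 7.83% of all genes with a promoter. Those members were Mpc1, Mtch2, Slc25a3, Slc25a4, Slc25a17, Slc25a20 and Slc25a38, and Slc25a20 was the only called gene among them. The letters TGGAAA, the core of the tonicity element bound by Nfat5, were in 6 members (13.95%), against 17.7% of tested genes and 20.9% of all genes. They were Sfxn3, Slc25a14, Slc25a15, Slc25a33, Slc25a53 and Ucp2. The palindromic NRF1 motif was in 0 of the 43 members and in 1.78% of tested genes and 0.877% of all genes. CCGGAAG and TGGAAA share GGAA but differ in the base before it, so the same bases on one strand cannot match both. Of the members with TGGAAA, Slc25a15 was called (lower). A match describes letters only.

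Carriers of adenine nucleotides and phosphate form the export and import route for ATP synthesis. Of 6 tested, Slc25a5 and Slc25a24 were lower, and Slc25a3, Slc25a4, Slc25a23 and Slc25a25 were not called, where 17.2% of all tested genes were lower. Per kb of exon, Slc25a5, Slc25a4 and Slc25a3 were the highest of all members. Slc25a5 (chrX:36795651-36798807; ENSMUSG00000016319), which encodes the ADP/ATP translocase found in most tissues, was at 249.98 ± 10.2 CPM per kb in control and 214 ± 7.86 in NaCl libraries (± SD, 4 libraries each). Slc25a4, the ADP/ATP translocase abundant in heart and muscle, was at 185 ± 5.22 and 179.6 ± 4.09 CPM per kb. Slc25a3, which brings in phosphate, followed at 92.5 ± 1.76 and 91.1 ± 0.883 CPM per kb.

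Slc25a5 was at 426, 426, 397 and 397 CPM in control replicates 1 to 4 and at 371, 347, 343 and 345 CPM in NaCl replicates 5 to 8. All NaCl libraries lay below all controls, with NaCl replicate 5 the nearest to them. The log2 change was -0.23 (SE 0.037; edgeR adjusted p = 0.00017). Slc25a5 shares 71.5% of its longest coding transcript with Gm5560 at 98% identity or more, so its counts are uncertain. Slc25a4 was at 433, 452, 424 and 428 CPM in control and at 410.1, 423, 434 and 424 CPM in NaCl libraries, and the groups overlapped (log2 change -0.04, SE 0.033; adjusted p = 0.386). Slc25a3 was at 524, 519, 503 and 507 CPM in control and at 502, 512, 503 and 506 CPM in NaCl libraries, with a log2 change of -0.02 (SE 0.030; adjusted p = 0.634). Of all member counts, the 3 genes together held 37.1 ± 0.8293% in control and 35.8 ± 0.326% in NaCl libraries (± SD, 4 libraries each).

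Slc25a24 encodes a calcium-regulated carrier that exchanges ATP-Mg for phosphate and so sets the size of the matrix adenine nucleotide pool. It was at 157, 158, 148 and 145 CPM in control replicates 1 to 4 and at 130.1, 136, 135 and 130.4 CPM in NaCl replicates 5 to 8. The groups did not overlap, and the log2 change was -0.19 (SE 0.037; edgeR adjusted p = 7.15e-04). Its relatives of the same calcium-regulated type were not called: Slc25a23 had a log2 change of -0.13 (adjusted p = 0.219) and Slc25a25 of -0.15 (adjusted p = 0.0758).

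**Figure D2:**
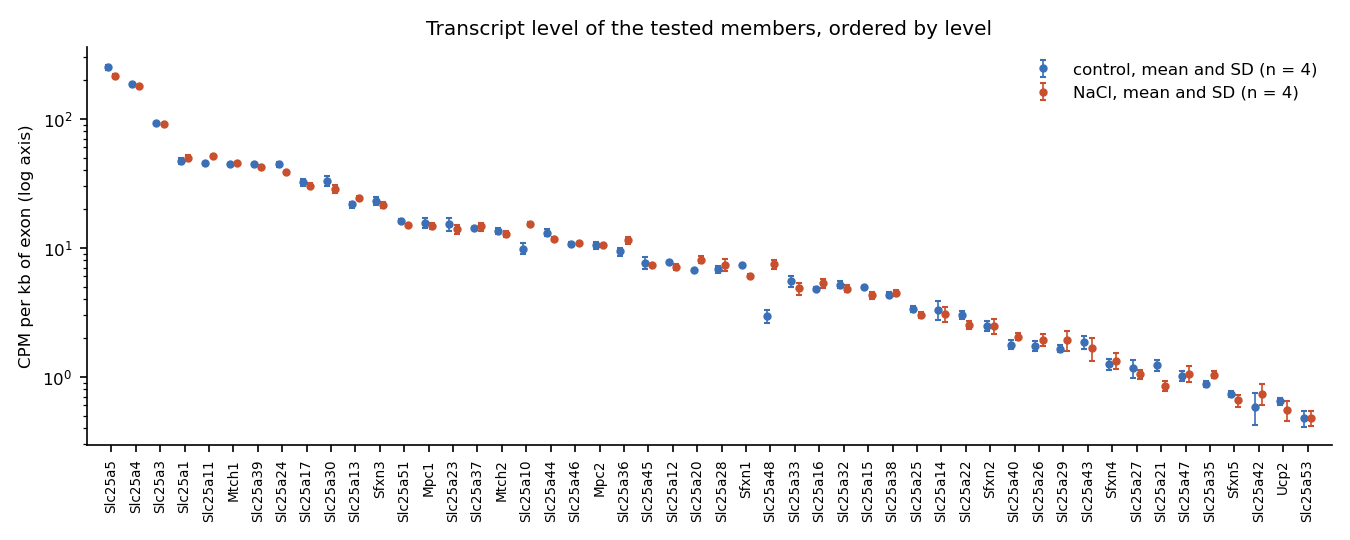
Transcript level of 50 tested members, as CPM per kb of exon on a log axis, ordered from the highest to the lowest mean over all libraries; points are group means and bars the SD of 4 libraries. Slc25a5, Slc25a4 and Slc25a3 stand above the rest, and the shift of Slc25a48 from 2.94 to 7.44 is the widest gap between the groups.

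The carriers of di- and tricarboxylates did not move as one. Of 5 tested, Slc25a10 and Slc25a11 were higher, Slc25a21 was lower, and Slc25a1 and Slc25a35 were not called (all tested genes: 16.9% higher, 17.2% lower). Slc25a11, the oxoglutarate/malate exchanger of the malate-aspartate shuttle, was at 96.0, 96.1, 90.7 and 98.6 CPM in control replicates 1 to 4 and at 106, 105, 112 and 109.7 CPM in NaCl replicates 5 to 8. The groups did not overlap, at a log2 change of 0.18 (SE 0.038; edgeR adjusted p = 0.00133). Exons of Rnf167 on the opposite strand cover 8.92% of its exon bases. Slc25a1, the citrate carrier that supplies cytosolic acetyl-CoA, was at 94.0, 101, 103 and 107 CPM in control and at 100.0, 107, 107 and 115 CPM in NaCl libraries. Its groups overlapped (log2 change 0.08, SE 0.047; adjusted p = 0.185), although at 46.7 ± 2.44 and 49.5 ± 2.83 CPM per kb it was among the 5 most abundant members, as was Slc25a11 at 45.0 ± 1.56 and 51.0 ± 1.47 CPM per kb.

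Slc25a21, which carries oxoadipate and oxoglutarate in lysine and tryptophan breakdown, had the lowest fold change of the tested members. It was at 5.26, 6.12, 6.02 and 6.64 CPM in control replicates 1 to 4 and at 4.18, 4.54, 4.10 and 3.64 CPM in NaCl replicates 5 to 8. All NaCl libraries were below all controls. The log2 change was -0.54 (SE 0.12; edgeR adjusted p = 0.00208), with 150 to 281 counts per library behind it. Exons of Pax9 on the opposite strand cover 3.88% of its exon bases (chr12:56712634-57197472, minus strand). The remaining member of the group, Slc25a34, had counts of 8, 0, 5 and 2 in the control group and of 1, 0, 5 and 5 in the NaCl group. It did not pass the filter and no fold is given.

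Carriers of amino acids and acylcarnitines, with Slc25a48 among them, included 7 called genes: of 11 tested, 3 were higher and 4 lower, beside 16.9% and 17.2% of all tested genes. Slc25a20, which exchanges acylcarnitine for carnitine in fatty acid oxidation, was at 32.1, 33.1, 32.8 and 32.7 CPM in control replicates 1 to 4 and at 40.2, 36.1, 41.6 and 38.5 CPM in NaCl replicates 5 to 8. The control libraries lay close together and all below the NaCl libraries. Its log2 change was 0.26 (SE 0.053; edgeR adjusted p = 0.00111).

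The aspartate/glutamate carriers of the malate-aspartate shuttle were called in opposite directions, but both calls were lost with the drift term. The ratio between them, tested below, did not pass after adjustment. Slc25a13, also called citrin, was at 76.2, 85.9, 84.8 and 81.8 CPM in control and at 92.3, 89.1, 90.4 and 96.2 CPM in NaCl libraries (log2 change 0.16, SE 0.043; edgeR adjusted p = 0.0075). Slc25a12, also called aralar, was at 58.5, 56.2, 57.3 and 56.9 CPM in control and at 55.5, 51.6, 53.1 and 49.0 CPM in NaCl libraries (log2 change -0.13, SE 0.045; adjusted p = 0.0344). Neither gene's groups overlapped.

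The other called genes of the amino acid and acylcarnitine group, Slc25a22, Slc25a15 and Slc25a44, were lower. Slc25a22, a glutamate carrier, was at 19.7, 16.9, 17.6 and 17.8 CPM in control and at 14.6, 15.8, 16.3 and 13.8 CPM in NaCl libraries (log2 change -0.25, SE 0.076; edgeR adjusted p = 0.0177). Slc25a15, the ornithine/citrulline carrier of the urea cycle, was at 28.0, 26.9, 28.0 and 28.1 CPM in control and at 22.7, 23.1, 26.1 and 24.3 CPM in NaCl libraries (log2 change -0.21, SE 0.059; adjusted p = 0.0126). Slc25a44, which carries branched-chain amino acids, was at 46.0, 50.2, 43.2 and 47.5 CPM in control and at 41.6, 41.7, 40.8 and 43.9 CPM in NaCl libraries (log2 change -0.15, SE 0.052; adjusted p = 0.0291). The groups were apart for Slc25a22 and Slc25a15. For Slc25a44 the groups overlapped, with NaCl replicate 8 above control replicate 3. The other 4 of the 11, Slc25a29, Slc25a38, Slc25a45 and Slc25a47, had log2 changes between -0.06 and 0.22 and were not called.

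**Figure D3:**
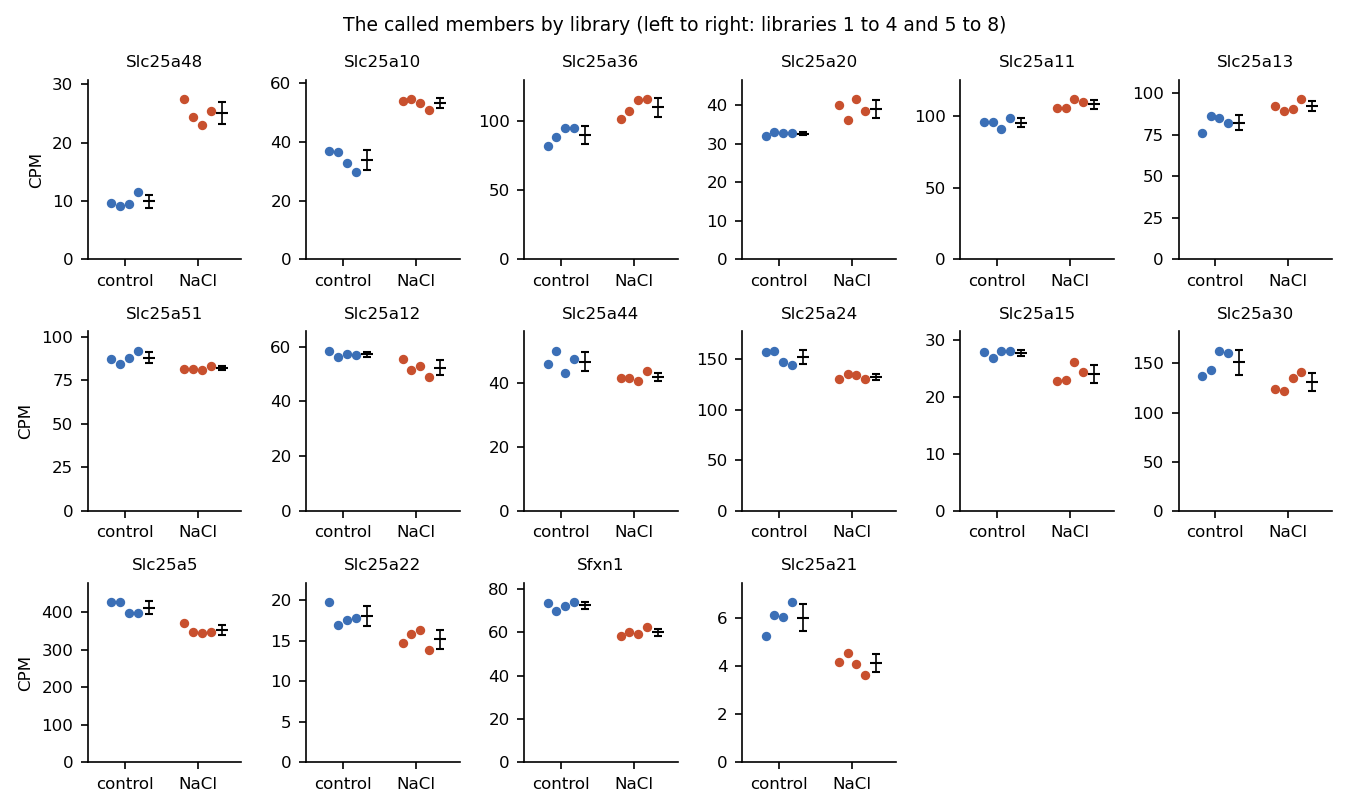
CPM of 16 called members in each library, from the highest to the lowest log2 change; blue points are control libraries 1 to 4, red points NaCl libraries 5 to 8, and black marks the mean and SD of each group (n = 4), on axes that start at 0. The groups are apart in 14 panels and overlap for Slc25a30 and Slc25a44.

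Cofactor, nucleotide, glutathione and iron carriers were the largest role group. Of 14 tested, 2 were higher and 1 was lower, beside 16.9% and 17.2% of all tested genes. Slc25a36, a pyrimidine nucleotide carrier, was at 81.5, 88.2, 94.9 and 94.7 CPM in control replicates 1 to 4 and at 101, 107, 115 and 116 CPM in NaCl replicates 5 to 8. The groups did not overlap, at a log2 change of 0.29 (SE 0.054; edgeR adjusted p = 8.00e-04), and it shares 10.4% of its longest coding transcript with Gm13217.

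Slc25a51, which brings NAD into the matrix, was at 87.6, 84.5, 88.2 and 92.1 CPM in control and at 81.8, 81.8, 80.9 and 83.6 CPM in NaCl libraries (log2 change -0.10, SE 0.038; adjusted p = 0.0422). Its groups did not overlap. The mitoferrins, which import iron, were not called: Slc25a37 had a log2 change of 0.04 (adjusted p = 0.538) and Slc25a28 of 0.11 (adjusted p = 0.253). Of the glutathione carriers, Slc25a39 had -0.07 (adjusted p = 0.161) and Slc25a40 0.21, just outside the threshold in edgeR's test (adjusted p = 0.0509) and called higher by DESeq2 (adjusted p = 0.0417). Slc25a42, the coenzyme A carrier, had the highest value of those not called, 0.34 with an SE of 0.19, over 92 to 201 counts per library (adjusted p = 0.191).

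Among uncoupling proteins and their relatives, Slc25a30 was lower (17.2% of all tested genes were) and 3 were not called. Slc25a30, first described as a kidney mitochondrial carrier, was at 137, 144, 163 and 160.3 CPM in control replicates 1 to 4 and at 124, 122, 136 and 141 CPM in NaCl replicates 5 to 8. The groups overlapped, since NaCl replicate 8 exceeded control replicate 1. The log2 change was -0.21 (SE 0.062; edgeR adjusted p = 0.021). Ucp2, an uncoupling protein gene found in many tissues, was low, at 3.07 to 4.74 CPM over all libraries, with a log2 change of -0.23 (SE 0.14; adjusted p = 0.223).

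Of the 5 sideroflexins Sfxn1 was called (34.1% of all tested genes were). It encodes a carrier that takes serine into mitochondria for one-carbon metabolism. Its level was 73.7, 69.97, 71.9 and 73.8 CPM in control replicates 1 to 4 and 58.1, 60.04, 59.3 and 62.2 CPM in NaCl replicates 5 to 8. The highest NaCl library was well below the lowest control. The mean fell from 72.3 ± 1.81 to 59.9 ± 1.76 CPM (± SD, 4 libraries each), with a log2 change of -0.27 (SE 0.040; edgeR adjusted p = 5.91e-05). Sfxn2, Sfxn3, Sfxn4 and Sfxn5 had log2 changes between -0.17 and 0.09 and were not called. Sfxn3, a close relative of Sfxn1, was at -0.10 (adjusted p = 0.158).

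The pyruvate carrier and the outer membrane members showed no call. Mpc1 and Mpc2 encode the subunits of the complex that admits pyruvate to the matrix. Mpc1 shares 35.7% of its longest coding transcript with 4930506C21Rik and Mpc1-ps at 98% identity or more, so its counts are uncertain. Mpc1 was at 32.6 ± 2.76 CPM in control and 30.7 ± 1.83 CPM in NaCl libraries (± SD, 4 libraries each; log2 change -0.08, SE 0.065; edgeR adjusted p = 0.347), and 23.1% of its exon bases lie under exons of 4930506C21Rik on the opposite strand. Mpc2 was at 76.7 ± 4.37 and 76.9 ± 1.95 CPM (log2 change 0.0043, SE 0.044; adjusted p = 0.953). Mtch1 and Mtch2, which insert proteins into the outer membrane, had log2 changes of 0.02 and -0.07, and Slc25a46, which acts in mitochondrial shape, of 0.0093. Adjusted p was 0.679, 0.239 and 0.89, in that order. Slc25a43 was at -0.16 (adjusted p = 0.496).

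Ratios between related members were compared within libraries, since they do not depend on how libraries are scaled. In 11 pairs the difference of mean log2 CPM ratios was tested by an exact two-sided permutation test, whose smallest p with 4 libraries against 4 is 0.0286. In 4 pairs the groups did not overlap and p was 0.0286, but after Benjamini-Hochberg adjustment over the 11 pairs it was 0.0786, so 0 pairs passed. At least 7 pairs at the smallest p would have been needed. Slc25a4 over Slc25a5 went from a log2 ratio of 0.08 ± 0.037 to 0.27 ± 0.083 (SD, n = 4 each). Slc25a12 over Slc25a13 went from -0.52 ± 0.10 to -0.82 ± 0.11. The difference was -0.47 for Slc25a33 over Slc25a36 and -0.28 for Slc25a39 over Slc25a40. For the other 7 pairs the groups overlapped, with differences between -0.17 (Sfxn1 over Sfxn3) and 0.11 (Slc25a14 over Slc25a30).

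**Figure D4:**
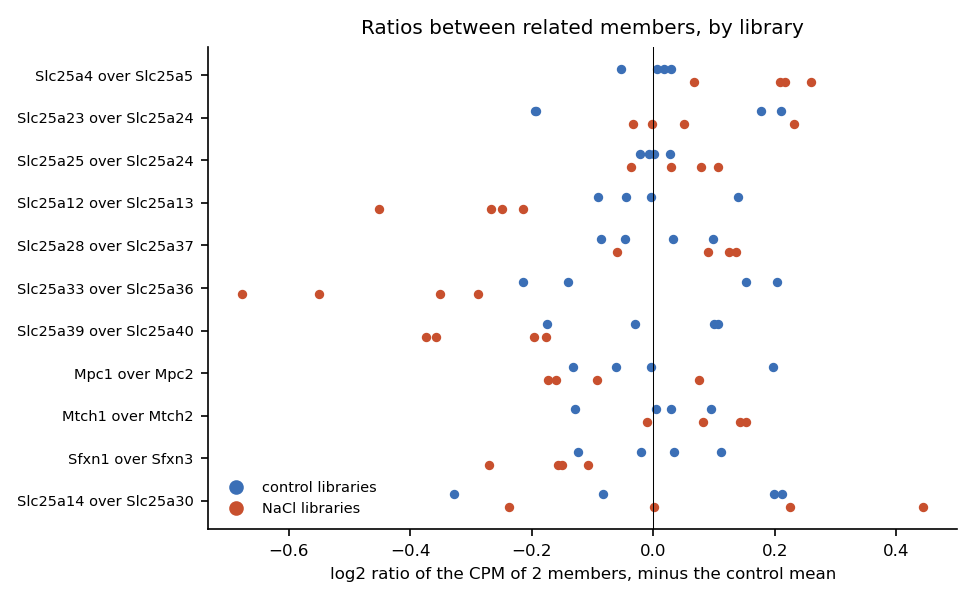
Log2 ratio of the CPM of 2 related members in each library, minus the control mean of that pair; blue points are control and red points NaCl libraries. The colours are apart for Slc25a4 over Slc25a5, Slc25a12 over Slc25a13, Slc25a33 over Slc25a36 and Slc25a39 over Slc25a40, and mix for the other 7 pairs.

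Most of these calls, 12 of 17, were lost when a drift along the library numbers was allowed for. Libraries 1 to 4 are control and 5 to 8 are NaCl, so a drift across all 8 and the treatment are partly confounded. When the model held a straight-line drift across libraries 1 to 8, 8 members (15.7%) were called, against 24.1% of all tested genes, with 3 higher (background 11.5%) and 5 lower (background 12.6%). In that fit the calls of 5 members were kept in the same direction: Slc25a48 (log2 change 1.27), Slc25a10 (0.92), Sfxn1 (-0.34), Slc25a15 (-0.31) and Slc25a30 (-0.52). Other calls were lost although the log2 change was about as large or larger: Slc25a21 was at -0.62, Slc25a20 at 0.24, Slc25a44 at -0.18 and Slc25a51 at -0.17. The calls of Slc25a11 (0.12), Slc25a24 (-0.10), Slc25a22 (-0.12), Slc25a5 (-0.08), Slc25a13 (0.07) and Slc25a12 (-0.02) were lost with a smaller log2 change of the same sign. Slc25a36 also lost its call, at -0.0011. Sfxn3 (-0.33), Slc25a23 (-0.51) and Slc25a42 (0.97) were called when the drift term was included and not without it. With a term for library number centred inside each group, which leaves the group difference intact, 22 members were called, 9 higher and 13 lower, against 43.0%, 21% and 22.0% of all tested genes. All 17 calls were kept there.

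**Figure D5:**
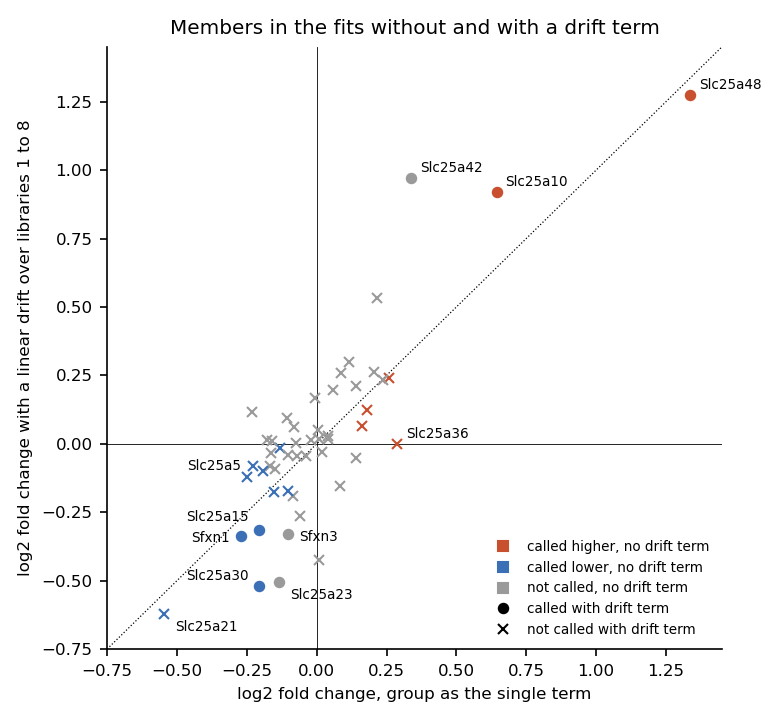
Log2 change of 50 tested members with the group as the single term (horizontal) and with a linear drift over libraries 1 to 8 added (vertical); colours give the call without the drift term, circles the calls with it, and the dotted line marks equal values. Slc25a48 lies furthest from 0 on both axes, Slc25a42 (0.97) and Slc25a10 (0.92) follow on the vertical axis, and Slc25a36 lies on the horizontal zero line.

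The weakest calls, 5 of the 17, did not hold in every fit that left out a library. Slc25a51 lost its call without control replicate 1, 3 or 4 or NaCl replicate 5, 6 or 7 (edgeR adjusted p between 0.0546 and 0.119). Slc25a12 lost it without control replicate 1 or 3 or NaCl replicate 6, 7 or 8, and Slc25a44 without control replicate 2 or 4 or NaCl replicate 5, 6 or 7. Slc25a30 lost it without control replicate 3 or 4 or NaCl replicate 5 or 6, and Slc25a22 without control replicate 1 or NaCl replicate 8. The adjusted p-values without those libraries were 0.0549 to 0.105 for Slc25a12, 0.0547 to 0.105 for Slc25a44, 0.0501 to 0.0619 for Slc25a30 and 0.0555 to 0.0600 for Slc25a22 in edgeR's test. The log2 changes in those fits were -0.11 to -0.08 for Slc25a51, -0.14 to -0.10 for Slc25a12, -0.15 to -0.12 for Slc25a44, -0.18 to -0.17 for Slc25a30 and -0.21 to -0.20 for Slc25a22. The other 12 called members kept their calls whichever library was left out.

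Genes around the carriers were examined in 6 lists, chosen with earlier results of these data known, of which 39 of 97 tested genes were called, where 34.1% of all tested genes were. With the drift term 29 of the 97 were called, beside 24.1% of all tested genes. The carrier import machinery brings the newly made carriers through the outer membrane and inserts them into the inner one. Of its 16 tested genes 4 were lower (25%), beside 17.2% of all tested genes, and 12 were not called. The median log2 change of the list was -0.10. The lower genes included Timm8a1 (-0.48, SE 0.13; edgeR adjusted p = 0.00853), Agk (-0.26, SE 0.075; adjusted p = 0.0112) and Tomm70a, a receptor for carriers (-0.30, SE 0.043; adjusted p = 4.23e-05). When the drift term was included the 4 calls were lost.

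Of 12 regulators of mitochondrial biogenesis, 2 were higher and 1 lower, beside 16.9% and 17.2% of all tested genes, with a median log2 change of 0.05. The coactivator gene Ppargc1b fell from 1.54 ± 0.147 to 0.939 ± 0.199 CPM (SD, n = 4 each; log2 change -0.71, SE 0.24; edgeR adjusted p = 0.0271). Polrmt, the mitochondrial RNA polymerase, rose by 0.18 (SE 0.046; adjusted p = 0.0071) and the transcription factor gene Yy1 by 0.11 (SE 0.032; adjusted p = 0.0155) on the log2 scale. Ppargc1a had a log2 change of 0.15 (adjusted p = 0.11) and Tfam, which packages mitochondrial DNA, of -0.13 (adjusted p = 0.0507). When the drift term was included the 3 calls were lost.

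Other transporters and channels of the mitochondrial membranes had 6 genes higher and 5 lower of 17, beside 16.9% and 17.2% of all tested genes, with a median log2 change of 0.03. With the drift term 6 were higher and 4 lower, beside 11.5% and 12.6%. Slc8b1, the mitochondrial sodium/calcium exchanger, rose from 27.4 ± 0.944 to 41.1 ± 1.42 CPM (SD, n = 4 each; log2 change 0.59, SE 0.051; edgeR adjusted p = 1.70e-07). Tspo, an outer membrane protein, fell from 276 ± 7.51 to 219.6 ± 5.33 CPM (log2 change -0.33, SE 0.033; adjusted p = 1.03e-06). Mcub, a dampening subunit of the calcium uniporter, had a log2 change of -0.30 (SE 0.068; adjusted p = 0.00274).

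Enzymes that use what the carriers bring in were mixed. In the pyruvate dehydrogenase list, 4 of 13 genes were higher and 2 lower, with a median log2 change of 0.02. With the drift term 4 were higher and 3 lower. For this list and those below, 16.9% of all tested genes were higher and 17.2% lower. With the drift term these shares were 11.5% and 12.6%. Pcx, which turns pyruvate into oxaloacetate, rose from 20.6 ± 2.79 to 39.7 ± 3.63 CPM (SD, n = 4 each; log2 change 0.94, SE 0.092; edgeR adjusted p = 3.96e-06). The phosphatase gene Pdp1 and its regulator gene Pdpr rose by 0.28 and 0.24 on the log2 scale (adjusted p = 0.00405 and 0.00257), and the kinase gene Pdk4 was at -0.15 (adjusted p = 0.407). Of 24 genes of the tricarboxylic acid cycle and the malate-aspartate shuttle 6 were higher and 2 lower, with a median of 0.02, and with the drift term 4 were higher and 2 lower. They included Glud1 (0.30), which links glutamate to oxoglutarate, and the complex II subunit gene Sdhc (-0.21), while Got1, the cytosolic aminotransferase of the shuttle, was at 0.07 and not called (adjusted p = 0.202). Of 15 genes of the carnitine shuttle and fatty acid oxidation 4 were higher and 3 lower, with a median of 0.04, and with the drift term 3 were higher and 3 lower. Acaa2 (0.27), Crat (0.24) and Cpt1a, which makes acylcarnitines for Slc25a20 (0.19), were called higher, and Acadl (-0.25) lower.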

How the data were processed

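RNA of 8 IMCD libraries was sequenced, 4 control and 4 NaCl. One deposited table holds raw counts per gene and library, and another a normalized signal. Per the submitters' processing notes, Trim Galore 0.6.7, STAR, DESeq2 1.34.0 and the build mm10 were used; the counting program, its use of strand and the annotation are not given in the sources used here. The signal deposited by the authors equals the count divided by a size factor of 0.864 to 1.145 per library, and was used only in an alternative for the ratios. The number of columns of other samples was 0.

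The counts were tested as deposited, without rounding, with edgeR 4.0.16 in R 4.3.3 (quasi-likelihood test, TMM factors, Benjamini-Hochberg adjustment over 14024 genes). The expression filter, with a minimum count of 10, removed 1264 genes holding 0.0191% of counts. The table has 38 rows with no symbol. CPM used TMM-scaled library sizes, and levels between genes were compared per kb of exon (GENCODE M21, GRCm38). Alternatives used DESeq2 1.42.0, limma 3.58.1, other scalings and filters, terms for the library number, and each library left out. Shared sequence was found with blastn 2.17.0 (at least 75 bases at 98% identity). In counts simulated for 13885 genes, the main test recovered 83.3% of 198 changed genes, and 9.84% of its 183 calls were false.

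The members and lists were chosen with earlier results of these data known. Named with every library's value were called members (up to 20 by absolute log2 fold change), the 5 members highest per kb, and members failing the filter. In each pathway list up to 3 called genes with the largest absolute change were named, and Tfam, Ppargc1a, Ppargc1b, Pdk4, Cpt1a and Got1 whatever their values. Slc25a2, Slc25a18, Slc25a31, Slc25a41, Slc25a54, Ucp1 and Ucp3 were not analysed here. A called member and 2 genes of other lists are included in the counts but not reported here by name, and the member is left out of the figures.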

Additional observations from a re-analysis of the deposited data

Results flagged for a closer look

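Among 44 groups of 4 values tested for a sample far from the others, 4 had one, where chance at 1 in 20 gives 2.2. Slc25a15 was at 26.9 CPM in control replicate 2, with the other control libraries at 28.0 to 28.1 CPM. Slc25a5 was at 371 CPM in NaCl replicate 5, with the other NaCl libraries at 343 to 347 CPM. The library total of control replicate 1 was 47565623 counts (47.57 M), with the other control libraries at 41768063 to 42731803. The total of NaCl replicate 5 was 35286796 counts (35.29 M), with the other NaCl libraries at 41366039 to 42394487.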

How the results depend on the processing

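When the model held a straight-line drift across libraries 1 to 8, the calls among all genes went from 4789 to 3382 (24.1% of tested genes). The 17 called members became 8, with 3 higher and 5 lower. At an adjusted p-value under 0.01 there were 10, of which 4 were lower, and the calls among all genes went from 4789 to 3145. Leaving out single libraries gave 13 to 16 called members, 7 to 8 higher and 6 to 9 lower, while the calls among all genes went from 4789 to between 4071 and 4634. The count stayed between 16 and 22 with DESeq2, limma-voom, other filters, other scalings and the library number centred within groups, where the calls among all genes were 4687 to 6030. Scaled by library totals alone, Slc25a12 and Slc25a51 lost their calls. With the linear drift the log2 change of 13 of the 51 tested members changed sign, Slc25a36 (-0.0011) being the called one. The share of all tested genes that changed sign was not counted. Among the most abundant members Slc25a1 (-0.15) and Slc25a3 (0.014) changed sign, and the cause was not tested. Of 360 refits of the members named with every library's value 314 kept direction and side of the threshold, 42 lost the call, 1 gained it and 3 changed sign. The number of passing ratio pairs could hardly leave 0 in so small a design, so its value of 0 under the alternatives says nothing about stability (4 pairs had an unadjusted exact permutation p of 0.0286 in the reported test). No paired analysis was possible because the groups share no replicate numbers (1 to 4 and 5 to 8).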

Other observations

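Genes of choline use were looked up after the values of Slc25a48 were seen. Chdh, the mitochondrial enzyme that oxidises choline towards betaine, an osmolyte of the renal medulla, rose from 109 ± 11.02 to 205 ± 8.64 CPM (SD, n = 4 each; log2 change 0.90, SE 0.061; edgeR adjusted p = 1.94e-07), and its groups did not overlap. Slc44a1, a choline transporter of plasma and mitochondrial membranes, had a log2 change of 0.10 (adjusted p = 0.0395) with overlapping groups, and with a linear drift term it was at 0.02 and not called. Aldh7a1, one of the aldehyde dehydrogenases that oxidise betaine aldehyde, was at -0.01 (adjusted p = 0.935), and was called lower at -0.24 with the drift term, where Chdh was called higher at 0.75.

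Within groups, 7 of the 51 tested members (13.7%) had a slope along the library number with an adjusted p under 0.05 in edgeR's test, against 13.2% of all tested genes. On the log2 scale per library, the slopes were 0.09 for Slc25a23, 0.08 for Slc25a30, 0.07 for Slc25a36, 0.06 for Slc25a1, 0.06 for Sfxn3, -0.04 for Slc25a5 and -0.07 for Slc25a10.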
